A study of Mus musculus with 6 samples.

Results

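The genes described here are the subunits of the transcription factor NF-kB and the proteins that hold it in check: Nfkb1, Nfkb2, Rela, Relb, Nfkbia, Nfkbib, Nfkbie, Nfkbiz, Tnfaip3 and Tnip1. They were chosen by symbol from the table of gene counts, which lists 41327 genes, and all 10 were found and passed the filter on low counts. The table holds 6 RNA-seq libraries of total RNA from ID8, an immortalized line from the ovarian surface epithelium of C57BL/6 mice, grown asynchronously without treatment. The genotype Trp53-/- (Trp53_KO) and the genotype Trp53+/+ (Trp53_WT) have 3 libraries each, of 15319956 to 19954170 counts. The labels do not say how the gene was altered, nor whether replicates or genotypes come from separate cultures or clones. P-values therefore rest on how far these libraries vary, which could be technical variation alone, and a difference between clones and one between genotypes cannot be told apart. Levels are given as CPM, the count relative to the library's TMM-scaled total, always in the order of replicates 1 to 3. Trp53 RNA itself was at 29.6, 25.5 and 25.3 CPM under Trp53_KO, against 110.1, 97.3 and 104.7 CPM for Trp53_WT. It was lower in every Trp53_KO library but not absent. Trp53_WT replicate 1 stood apart from the other Trp53_WT libraries (chi-square per degree of freedom 29.7 and 29.2, against 2.10 between the others), so results were also computed without it.

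NF-kB is a family of dimers. Rela and Relb, together with Rel, carry a domain that activates transcription, whereas Nfkb1 and Nfkb2 encode the precursors p105 and p100, which are processed to p50 and p52. In resting cells the inhibitors IkB-alpha (Nfkbia), IkB-beta (Nfkbib) and IkB-epsilon (Nfkbie) retain dimers in the cytoplasm, and p105 and p100 also act as inhibitors before they are processed. Signals from receptors of tumour necrosis factor, interleukin 1 or microbial products activate the IkB kinase complex, the inhibitors are degraded, and the dimers enter the nucleus. Several genes of the circuit are themselves targets of NF-kB, with Nfkbia and Tnfaip3 as textbook examples of this feedback. Which of the genes above are targets in these cells was not tested. Nfkbiz encodes a nuclear cofactor. Tnfaip3 encodes the ubiquitin-editing enzyme A20, and Tnip1 a partner of A20 that binds ubiquitin.

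Letters that match the kB consensus, the motif that NF-kB dimers bind, were looked for in the promoters. The RefSeq promoter table (build GRCm38.p6, the assembly of mm10) held 10 promoters of 7 of the genes, and the 250 bases upstream of each start were searched on both strands. A match was present in 7 of the 10 promoters, which belong to 5 of the 7 genes. Windows of 30 bases are shown because they hold the sites of the genes compared below; capitals mark the match or overlapping matches, and each window is written on the strand of its gene.
Nfkb2, chr19:46304688-46304717, plus strand: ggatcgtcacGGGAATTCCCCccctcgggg
Nfkb2, chr19:46304707-46304736, plus strand: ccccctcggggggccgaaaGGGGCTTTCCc
Nfkb2, start further downstream, chr19:46305695-46305724, plus strand: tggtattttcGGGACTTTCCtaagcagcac
Nfkbia, chr12:55492657-55492686, minus strand: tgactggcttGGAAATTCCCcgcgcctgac
Nfkbie, chr17:45555584-45555613, plus strand: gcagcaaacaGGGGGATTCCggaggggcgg
Tnfaip3, chr10:19015516-19015545, minus strand: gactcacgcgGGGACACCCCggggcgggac
Tnfaip3, chr10:19015411-19015440, minus strand: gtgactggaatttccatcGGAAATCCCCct
Tnip1, chr11:54962978-54963007, minus strand: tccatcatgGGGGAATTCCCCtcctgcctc
Another promoter of Nfkb2 held 1 more match, at chr19:46305449-46305478, while a second promoter of Tnfaip3 (chromosome 10, 19011964 to 19012213) and the promoters of Rela and Nfkbib held none. In the table as a whole, 7.25% of 32851 promoters held at least 1 match. The consensus of a p53 half-site was found in 0 of the 10 promoters of these genes and in 7.13% of all promoters. A match is a stretch of letters, and nothing in these data measures binding at it. The starts are those of RefSeq. By the gene positions in GENCODE, the stretches of Nfkb2, Nfkbib and Tnfaip3 lie wholly or almost wholly inside the gene, and that of Rela partly. The bases upstream of those GENCODE starts were thus largely not searched. Nfkb1, Relb and Nfkbiz have no sequence shown.

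The first question was how RNA of the 10 genes differed between the genotypes. Of the 10, 6 changed, where 30.3% of the 13651 tested genes did, and all 6 fell in Trp53_KO: Tnfaip3, Nfkbiz, Nfkbia, Nfkbie, Relb and Nfkb2 in order of size. The share of all tested genes that fell was 16.1%, and it was 16.2% among the 7590 genes with a Trp53_WT level inside the range of the 10. The same 6 were called without Trp53_WT replicate 1. None of the 10 rose, against a background of 14.1% (edgeR quasi-likelihood test with Benjamini-Hochberg adjustment, threshold 0.05; 1 at an unadjusted p under 0.05 and 0 in DESeq2 or limma-voom). The median log2 fold change of the 10 was -0.35, beside -0.02 for all tested genes. The libraries of the genotypes did not overlap for 8 of the 10, of which 7 were lower in Trp53_KO and 1, Nfkb1, was higher. Over all tested genes 46.0% did not overlap in either direction and 24.2% did so with Trp53_KO lower.

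**Figure D1:**
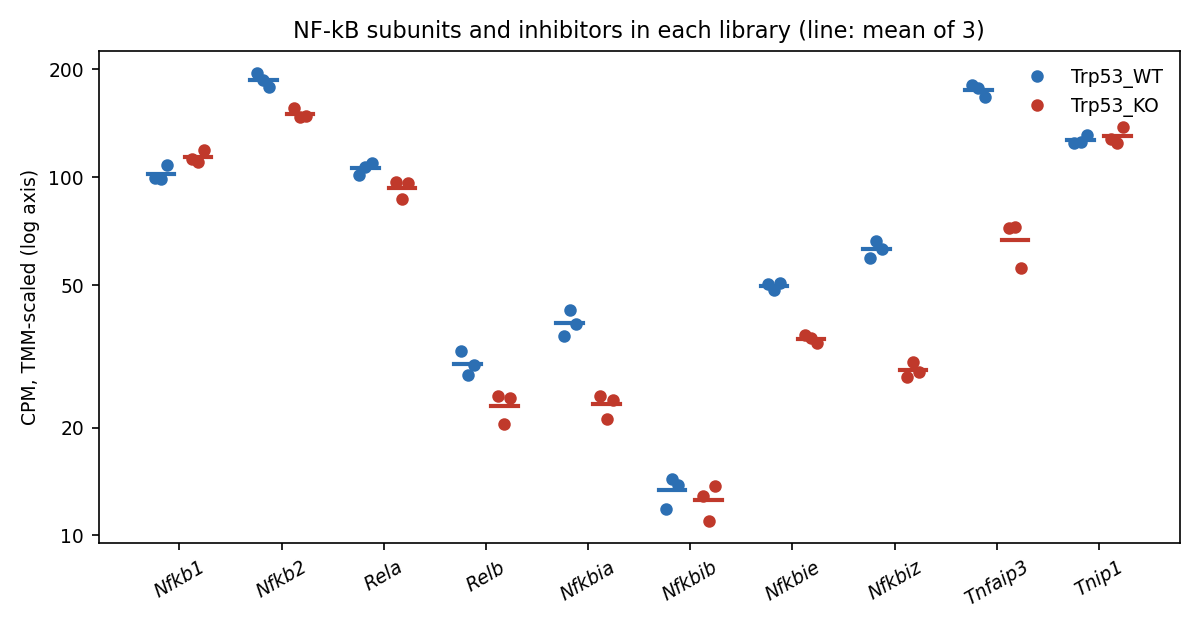
Level of each of the 10 genes in CPM (TMM-scaled, log axis); each point is a library, blue for Trp53_WT and red for Trp53_KO, and each line the mean of 3. The widest gap is at Tnfaip3, with 167 to 181 CPM in Trp53_WT and 55.6 to 72.4 CPM in Trp53_KO, and the groups overlap at Nfkbib and Tnip1.

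Among the subunits, the precursor gene Nfkb2 was the most abundant in CPM. Its libraries gave 156, 147 and 149 CPM in Trp53_KO and 195, 187 and 178 CPM in Trp53_WT. Every Trp53_KO library lay below every Trp53_WT library, and the log2 fold change was -0.31 ± 0.06 (SE; n = 3 libraries each; edgeR, adjusted p = 0.0044). Relb, the partner of p52 in the alternative pathway, was at 24.4, 20.4 and 24.3 CPM in Trp53_KO and at 32.7, 28.04 and 29.8 CPM in Trp53_WT. The groups again did not overlap, and Relb fell, its log2 fold change being -0.39 ± 0.10 (SE; edgeR, adjusted p = 0.016). The Relb call is lost at an adjusted p under 0.01.

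The genes of the classical dimer, Rela and Nfkb1, were not called. Rela, which encodes p65, was at 96.9, 86.8 and 96.3 CPM in Trp53_KO and at 101, 107 and 109.5 CPM in Trp53_WT. Its libraries did not overlap, but the log2 fold change of -0.18 (95% interval -0.34 to -0.02, not adjusted for the number of genes) did not pass (edgeR, adjusted p = 0.084). Without Trp53_WT replicate 1 it did pass, at -0.22 (edgeR, adjusted p = 0.019; the alternatives spanned 0.019 to 0.26). Nfkb1 was the one gene of the 10 on the higher side without overlap, at 112, 110.0 and 119 CPM in Trp53_KO and 99.7, 99.0 and 108 CPM in Trp53_WT. Its log2 fold change was 0.16 (95% interval 0.0016 to 0.31; edgeR, adjusted p = 0.12), so a rise of more than about 0.31 lies outside the interval.

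Rel, the remaining subunit gene and no member of the 10, stood apart in a single library. It was at 29.3, 31.4 and 34.6 CPM in Trp53_KO and at 60.7, 27.4 and 26.9 CPM in Trp53_WT. Trp53_WT replicate 1 was above all others, while the other Trp53_WT libraries were below all Trp53_KO libraries. With all 6 libraries the log2 fold change was -0.26 ± 0.27 (SE; edgeR, adjusted p = 0.52), and without Trp53_WT replicate 1 it was 0.22 (adjusted p = 0.059), so the direction rests on that library.

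The classical inhibitors fell in part. Nfkbia, the gene of IkB-alpha, was at 24.5, 21.2 and 23.9 CPM in Trp53_KO and at 36.0, 42.6 and 39.0 CPM in Trp53_WT. The Trp53_KO mean was 59.2% of the Trp53_WT mean, and the log2 fold change was -0.76 ± 0.09 (SE; edgeR, adjusted p = 2.2e-04). Nfkbie, the gene of IkB-epsilon, was at 36.4, 35.6 and 34.4 CPM in Trp53_KO and at 50.4, 48.4 and 50.7 CPM in Trp53_WT. Its libraries were tight within each genotype, and it fell to 71.1% of the Trp53_WT mean, a log2 fold change of -0.49 ± 0.07 (SE; edgeR, adjusted p = 5.7e-04). Nfkbib, the gene of IkB-beta, was at 12.8, 10.99 and 13.8 CPM in Trp53_KO and at 11.8, 14.4 and 13.8 CPM in Trp53_WT. These overlapped, and the interval of its log2 fold change ran from -0.36 to 0.18 (edgeR, adjusted p = 0.60). It had the fewest counts of the 10, 693 in Trp53_KO and 724 in Trp53_WT. A log2 fold change as large as that of Nfkb2 lies inside its interval.

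Nfkbiz encodes IkB-zeta, an inducible nuclear protein that cooperates with p50 at secondary response genes. It was at 27.7, 30.5 and 28.5 CPM in Trp53_KO and at 59.5, 66.3 and 63.0 CPM in Trp53_WT. The Trp53_KO libraries reached 45.9% of the Trp53_WT mean, with a wide gap between the groups and a log2 fold change of -1.12 ± 0.08 (SE; edgeR, adjusted p = 4.6e-06). A related atypical IkB gene, Nfkbid, went the same way at far lower level: it had 0 counts in every Trp53_KO library and 75 over the 3 Trp53_WT libraries. Set against 3 counts summed over the group as a floor, this is at least 25.6-fold lower (edgeR, adjusted p = 7.2e-04); it was not tested under the filter of 1 CPM in 3 libraries. Bcl3, the third atypical IkB gene, which binds p50 and p52 dimers, was at 16.9 ± 3.5 against 17.6 ± 1.5 CPM (SD, n = 3; edgeR, adjusted p = 0.81).

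The largest fall of the 10 was that of Tnfaip3, the gene of A20. It was at 72.2, 72.4 and 55.6 CPM in Trp53_KO and at 181, 178 and 167 CPM in Trp53_WT. The groups were far apart, and the log2 fold change was -1.39 ± 0.10 (SE; edgeR, adjusted p = 6.5e-06). By size of change it ranked 876 of 13651 tested genes, and Nfkbiz ranked 1121. Its partner gene Tnip1 was not called, at 128, 125 and 138 CPM in Trp53_KO and 124, 126 and 131 CPM in Trp53_WT, with an interval of -0.11 to 0.18 (edgeR, adjusted p = 0.73). The interval for Tnfaip3, -1.63 to -1.16, does not overlap that of Tnip1; the difference itself was not tested. Tnip3, a relative of Tnip1 that is no member of the 10, fell from 69.2 ± 1.7 to 14.2 ± 0.86 CPM (SD, n = 3), a log2 fold change of -2.29 (edgeR, adjusted p = 4.9e-08).

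**Figure D2:**
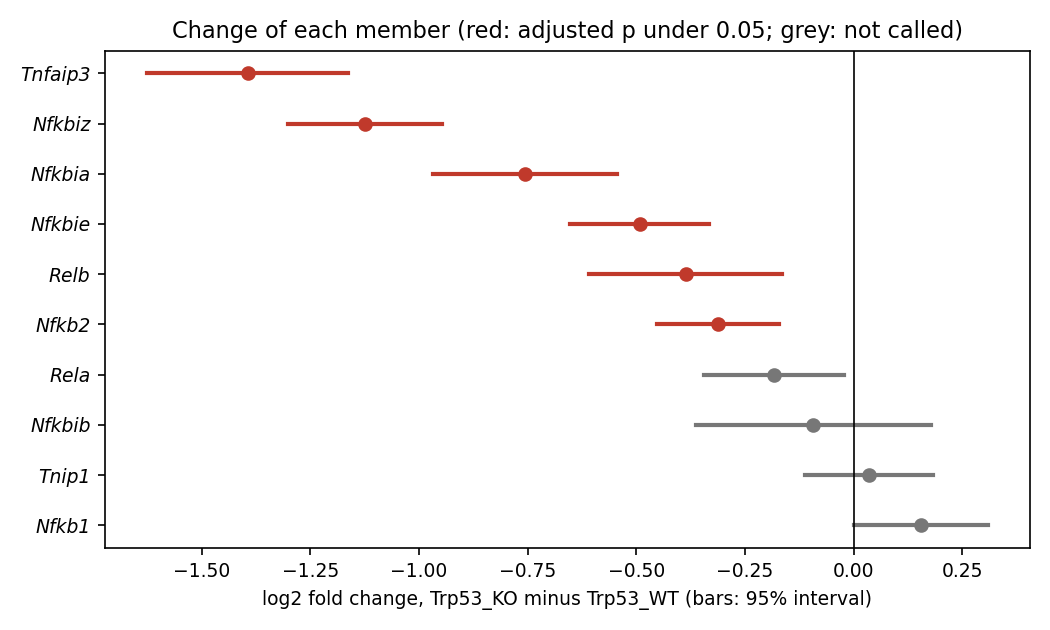
Log2 fold change of each gene, Trp53_KO minus Trp53_WT, with its 95% interval; red genes had an adjusted p under 0.05. The 6 red genes lie between -0.31 and -1.39, and the grey genes lie between -0.18 and 0.16.

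The promoter letters shown above can be read beside these changes. All 4 genes that fell and have a promoter in the table (Nfkb2, Nfkbia, Nfkbie and Tnfaip3) held a kB match within the 250 bases of at least 1 promoter, and of the 3 that were not called, Rela and Nfkbib held none. Tnip1, the third, was different: it held overlapping matches on both strands and its RNA was not called. With 7 genes this is a description and no test was made.

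To compare levels between genes, CPM were divided by the length of the GENCODE transcript with the longest coding sequence, which gives CPM per kilobase. In Trp53_WT the order from the top was Nfkb2 (59.5 CPM per kilobase), Tnip1 (42.7), Tnfaip3 (39.7), Rela (39.0), Nfkb1 (24.8), Nfkbia (24.8), Nfkbie (21.2), Nfkbiz (15.3), Relb (13.7) and Nfkbib (6.48). The neighbouring pairs Tnfaip3 and Rela, Nfkb1 and Nfkbia, and Nfkbiz and Relb overlapped between libraries. In Trp53_KO the order was Nfkb2 (48.0), Tnip1 (43.8), Rela (34.4), Nfkb1 (27.7), Tnfaip3 (15.1), Nfkbie (15.04), Nfkbia (14.7), Relb (10.4), Nfkbiz (7.03) and Nfkbib (6.08 CPM per kilobase). There, Tnfaip3, Nfkbie and Nfkbia overlapped with their neighbours. These places depend on the length used. All annotated exons of Nfkb1 come to 12061 bases, against 4117 in the transcript used, and those of Tnfaip3 to 7226 against 4422. With all exons, an alternative added after the data were seen, Nfkb1 was at 8.48 and Tnfaip3 at 24.3 CPM per kilobase in Trp53_WT, where Rela was at 34.5. In Trp53_KO, Tnfaip3 was then at 9.24 and Nfkbia at 14.4 CPM per kilobase. Tnfaip3 thus no longer stood beside Rela in Trp53_WT or beside Nfkbia in Trp53_KO. The top place in Trp53_KO also changed, with Tnip1 at 36.8 and Nfkb2 at 32.9 CPM per kilobase. In Trp53_WT Nfkb2 stayed first, at 40.8.

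Ratios within a library do not depend on how libraries are scaled. Per kilobase, Nfkbia RNA amounted to 0.436, 0.420 and 0.428 of Rela RNA in Trp53_KO and to 0.612, 0.684 and 0.613 of it in Trp53_WT. The ratio of Nfkbie to Rela was 0.433, 0.472 and 0.411 in Trp53_KO and 0.573, 0.521 and 0.534 in Trp53_WT. Both ratios were lower in every Trp53_KO library. For Nfkbib to Rela the libraries overlapped, at 0.175, 0.167 and 0.189 in Trp53_KO and 0.154, 0.177 and 0.166 in Trp53_WT. Nfkbiz RNA was 0.247, 0.277 and 0.239 of Nfkb1 RNA in Trp53_KO and 0.597, 0.670 and 0.583 of it in Trp53_WT, again without overlap. The size of a ratio, but not its fold difference between genotypes, depends on the gene lengths: with all annotated exons, Nfkbiz to Nfkb1 averaged 0.611 in Trp53_KO and 1.48 in Trp53_WT. In an exact permutation test, two-sided, the 3 ratios without overlap had p = 0.10, the smallest that 3 against 3 allows, and Nfkbib to Rela had p = 0.40; adjusted over the 4 ratios these are 0.13 and 0.40. Summed per kilobase, the 3 classical inhibitors amounted to between 0.295 and 0.301 of the 4 subunits in Trp53_KO and to between 0.360 and 0.401 of them in Trp53_WT (means of 0.405 and 0.512 with all annotated exons).

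**Figure D3:**
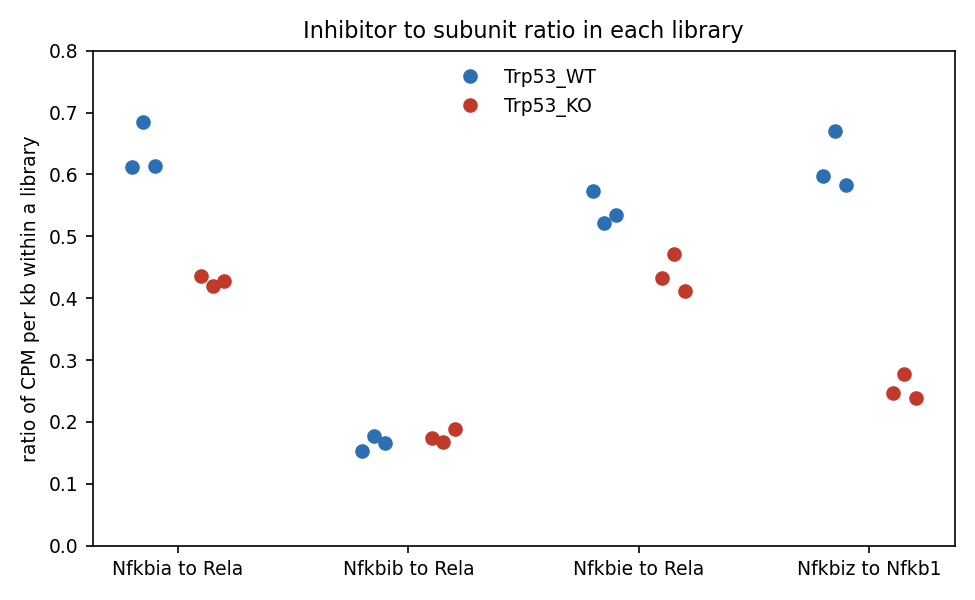
Ratio of CPM per kilobase of an inhibitor gene to a subunit gene within each library, blue for Trp53_WT and red for Trp53_KO. Nfkbia to Rela, Nfkbie to Rela and Nfkbiz to Nfkb1 are lower in every Trp53_KO library, while Nfkbib to Rela overlaps at 0.154 to 0.189.

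The other genes of the pathway were taken from 7 lists of 129 genes by role, of which 97 were tested. Of these, 37 fell (38.1%, where 16.1% of all tested genes fell) and 7 rose (7.22%, where 14.1% rose), with a median log2 fold change of -0.15. The list of NF-kB target genes held 17 of the 37 and 25 of the 97. The lists were drawn up with earlier results of these data known, so these shares are no independent evidence of direction. In the list of IkB kinases and signalling kinases 5 of 14 fell and 0 rose (edgeR; 1 at an unadjusted p under 0.05, and 0 in DESeq2 or limma-voom). Ikbkg, the gene of the regulatory subunit NEMO, was at 59.4 ± 0.85 CPM in Trp53_KO and 114 ± 4.6 CPM in Trp53_WT (SD, n = 3), a log2 difference of -0.95 (edgeR, adjusted p = 4.3e-06). The catalytic subunit genes stood at 175 ± 17 against 176 ± 8.4 CPM for Chuk (adjusted p = 0.97) and at 54.4 ± 3.0 against 65.4 ± 5.1 CPM for Ikbkb. Ikbkb was called (edgeR, adjusted p = 0.038), but not without Trp53_KO replicate 1 (0.13) or 2 (0.10) or Trp53_WT replicate 2 (0.088), nor with the replicate number as a block (0.061) or without a filter on low counts (0.063), within a range of 0.034 to 0.13. Ikbke, Irak1 and Irak4, kinases downstream of innate receptors, fell with log2 fold changes of -1.02, -0.79 and -0.63. Map3k14, the kinase NIK that starts the alternative pathway, was at 56.7 ± 4.3 against 54.9 ± 1.8 CPM (SD, n = 3; edgeR, adjusted p = 0.71).

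Upstream, ligand genes were almost silent. Only 3 of 12 were tested, 4 had 0 counts in all libraries, Il1b among them, and Tnf and Il1a had 1 and 3 counts over the 6 libraries. Among the 3 tested, the alarmin gene Il33 fell, by a log2 fold change of -1.38 (edgeR, adjusted p = 7.8e-04), and 0 rose (0 also at an unadjusted p under 0.05 and in DESeq2 or limma-voom). Il18 was called as well, and 2 were thus lower, without Trp53_KO replicate 3 (adjusted p = 0.039; 0.080 with all libraries). Of 13 tested receptor genes 8 fell and 2 rose, with a median of -0.50. Over all tested genes 16.1% fell and 14.1% rose. With 1 library left out, the falls among receptor genes ran from 6 to 9. Tnfrsf1a, the main receptor of tumour necrosis factor, went from 51.4 ± 7.4 to 36.3 ± 2.5 CPM, Il1r1, the signalling receptor of interleukin 1, from 25.1 ± 2.0 to 15.3 ± 0.19 CPM, and Tlr4, the receptor of lipopolysaccharide, from 99.2 ± 3.2 to 66.3 ± 4.8 CPM (SD, n = 3). The accessory chain Il1rap rose from 13.2 ± 0.70 to 39.5 ± 3.7 CPM, opposite to Il1r1. Tnfrsf11a, the gene of RANK, had 0 counts in Trp53_WT and 109 in Trp53_KO, which is at least 35.5-fold higher with the same floor.

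Of 19 tested adaptors and ubiquitin ligases 2 rose and 2 fell, and the median was -0.08. Over all tested genes 14.1% rose and 16.1% fell. Traf2 rose by 0.38 on the log2 scale (adjusted p = 0.0033), while Traf3, which restrains NIK, and Rbck1, a part of the linear ubiquitin ligase, fell with log2 fold changes of -0.33 and -0.36. Traf5 rose by 0.58 (edgeR, adjusted p = 0.041), a call lost when any library other than Trp53_WT replicate 1 was left out (up to 0.13) or in DESeq2 (0.067). Among 19 tested other negative regulators 3 fell and 2 rose, with a median of 0.002. Besides Tnip3, Optn, which like Tnip1 binds ubiquitin, fell with -0.72, whereas the deubiquitinase gene Cyld was at 222 ± 15 against 244 ± 6.9 CPM (SD, n = 3; edgeR, adjusted p = 0.16). Usp18 fell with -0.89 (adjusted p = 0.025), a call lost without any of the Trp53_KO libraries or Trp53_WT replicate 3, in DESeq2 (up to 0.17) and with the replicate block (0.057). Trib3 rose by 0.90 and Irak3, with 57 and 25 counts and named after its values were seen, by 1.15; the count of 2 was 1 without Trp53_KO replicate 1 or 2 or Trp53_WT replicate 2, with the replicate block, under the filter of 1 CPM in 3 libraries, in DESeq2, at an adjusted p under 0.01 and with at least a 2-fold change.

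Of 25 tested target genes of NF-kB 17 fell and 1 rose, and the median was -0.70. Over all tested genes 16.1% fell and 14.1% rose. With 1 library left out, the falls in this list ran from 13 to 17. Ptgs2, the prostaglandin synthase COX-2, was at 254, 273 and 175 CPM in Trp53_KO and at 939, 1005 and 856 CPM in Trp53_WT. Tnfaip2, a gene first found by its induction with tumour necrosis factor, went from 199 ± 8.3 to 92.5 ± 3.2 CPM, Bcl2l1, the gene of the survival protein BCL-XL, from 80.5 ± 3.5 to 46.0 ± 1.9 CPM, and the complement gene C3 from 201 ± 25 to 97.1 ± 8.9 CPM (SD, n = 3; all called). The one gene that rose, Plau, the gene of urokinase, named after its values were seen, did so by 0.54 on the log2 scale; the count was 2 without Trp53_KO replicate 3 or Trp53_WT replicate 2, without a filter on low counts and with the replicate block, and 0 with at least a 2-fold change. Many classical cytokine targets could not be judged, as Cxcl1, Cxcl2 and Il6 had 7, 2 and 7 counts over the 6 libraries. The target list was drawn up with earlier results of these data known and is no independent evidence of direction.

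**Figure D4:**
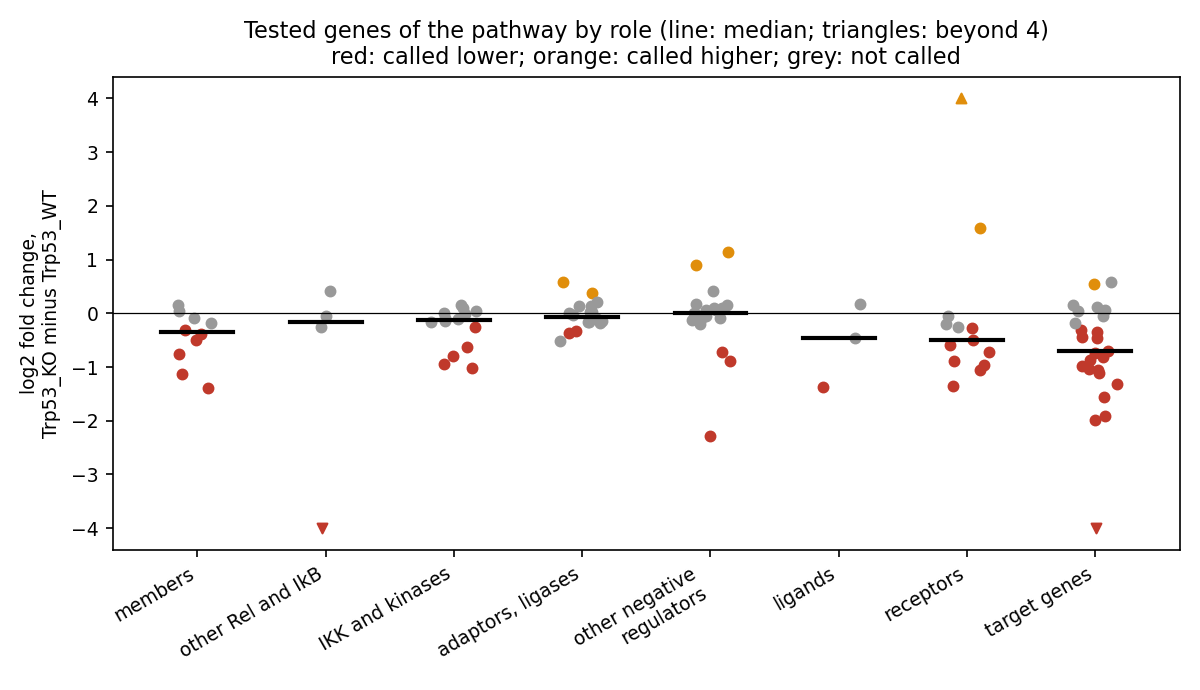
Log2 fold change (Trp53_KO minus Trp53_WT) of each tested gene of the pathway, by role; the black line is the median of a list, and triangles mark values beyond 4. Target genes (median -0.70), receptors (-0.50) and the 10 genes themselves (-0.35) lie lower than adaptors (-0.08) and other negative regulators (0.002).

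A separate readout covers repeats inside the same genes. The authors' deposited table of repeats lists, for every repeat locus in either read direction, a log2 fold change with its FDR (false discovery rate) but not the libraries' own values, so the depth behind each row is unknown. It held 423 rows inside the 10 genes, 397 of them read in the direction of the gene. At an FDR under 0.05, the authors' deposited table has 9 of these rows lower in Trp53_KO and 0 higher, where 0.284% of all 773731 rows were lower and 0.388% higher. All 9 lay in the 2 genes that fell most: 6 of 11 rows in Tnfaip3 and 3 of 30 in Nfkbiz. Of these, 5 and 3 lay outside the exons of the longest coding transcript. The authors' deposited table annotates 2 of the 5 in Tnfaip3, L1MA4 and B1F, as 5' untranslated region and not as intron. In the authors' deposited table an AT_rich row at 19000917 to 19000940 has the same label. That row lies at the 3' end of this minus-strand gene, so the label is uncertain there. These reads come from the same 6 libraries as the gene counts, so the table is a second count of the same RNA and not a replicate.

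In Tnfaip3 the row with the lowest FDR in the authors' deposited table was an L1MA4 element (mm10 chromosome 10, 19005867 to 19006176), with a log2 fold change of -1.57 and an FDR of 3.4e-04. In Nfkbiz it was a URR1A element (chromosome 16, 55814405 to 55814639), with -1.33 and 5.8e-04 in the authors' deposited table. Over rows in the gene's own direction, the median of the authors' deposited values was -1.19 in Tnfaip3, with 11 of 11 below 0, and -0.75 in Nfkbiz, with 24 of 28 below 0. It was -0.82 in Nfkbia (2 rows), -0.54 in Nfkbie (9), -0.43 in Relb (62), -0.41 in Nfkb2 (3), -0.37 in Rela (18), -0.29 in Nfkbib (21), -0.05 in Tnip1 (122) and 0.0008 in Nfkb1 (121), all from the authors' deposited table. Of the 4 genes not called by gene counts, Tnip1 and Nfkb1 had medians near 0. Those of Rela and Nfkbib, also not called, were -0.37 and -0.29, not far from those of the called genes Nfkb2 and Relb. The background over 510842 rows in introns, in the direction of their gene, was 0.0004. Rows of 1 gene share its transcript and are not replicates.

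**Figure D5:**
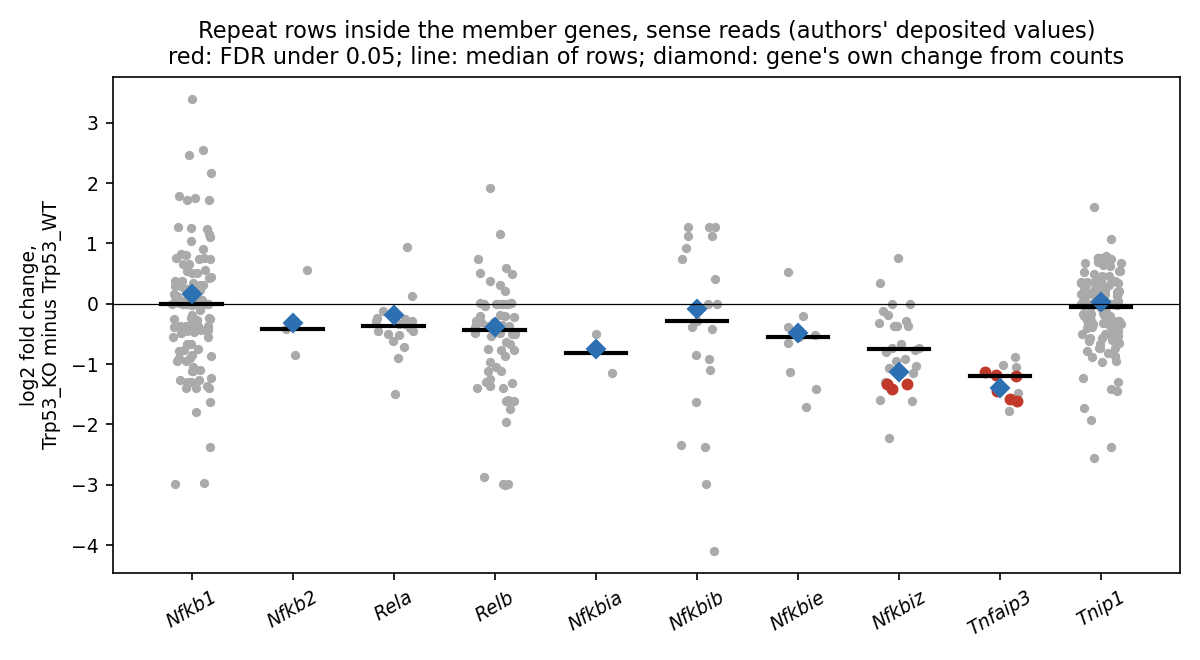
Log2 fold change of repeat rows inside each gene, read in the gene's direction, from the authors' deposited table; red rows have an FDR under 0.05, the line is the median of rows and the blue diamond the change from gene counts. The red rows are in Nfkbiz and Tnfaip3, whose medians are -0.75 and -1.19.

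The genes that fell lie on several chromosomes (GRCm38): Tnfaip3 on chromosome 10 from 19000910 to 19015657, Nfkbiz on 16 from 55811375 to 55838899 and Nfkbia on 12 from 55489410 to 55492647. Nfkbie lies on 17 from 45555703 to 45563169, Relb on 7 from 19606217 to 19629438 and Nfkb2 on 19 from 46304320 to 46312385. Of 20 nearest tested genes on either side of the 10, 4 were higher and 2 lower, where 14.1% and 16.1% of all tested genes were. Beside the 6 genes that fell, 2 of 12 were higher and 2 lower. Ralgapa1, 110249 bases from Nfkbia, fell by a log2 fold change of -0.60, and Alcam, the nearest tested gene on one side of Nfkbiz at a distance of 3357301 bases, with -1.11. Ifngr1 and Perp, either side of Tnfaip3, were at -0.16 and 0.25. Psd overlaps Nfkb2 and Sirt2 overlaps Nfkbib on the opposite strand. Whether counting used strand is not given in the sources used here, so how reads in those overlaps were assigned is unknown. Psd had 120 counts over all libraries, where Nfkb2 had 18303. Sirt2 had 2801, more than the 1417 of Nfkbib. Neither overlapping gene is in the tally above. Psd was called higher, with a log2 fold change of 1.06 (edgeR, adjusted p = 0.031), opposite to Nfkb2, and Sirt2 was not called.

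The 3' untranslated regions of the longest coding transcripts (GENCODE M21) were searched for ATTTA, the core of AU-rich elements that mark many short-lived inducible RNAs. Tnfaip3 held 5 copies, Nfkbiz and Nfkb1 4 each, Nfkbia 2 and Nfkb2 1, while Rela, Relb, Nfkbib, Nfkbie and Tnip1 held 0. The median of 10303 tested genes was 1 copy, or 1.36 per kilobase, and Tnfaip3, Nfkbiz and Nfkbia held 2.75, 2.95 and 3.91 per kilobase. Nfkb2 held 7.52 per kilobase and Nfkb1, which was not called, 5.71. The longer nonamer form of the element occurred 3 times in Tnfaip3, once in Nfkbia and once in Nfkb2 and in none of the other 7 genes, and 17.0% of the 10303 genes held it. No test was made of these counts.

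The tested genes with the most similar profiles were found by the root mean square distance between log2 CPM centred on their own mean over the 6 libraries, among 10240 genes with at least 5 CPM as the mean of the genotypes' means, leaving out symbols of predicted (Gm) and Riken genes. Nearest to Tnfaip3 were Rnase4 (distance 0.058), Oxr1 (0.078) and Ereg (0.088), nearest to Nfkbiz were Mdm2 (0.052), Ggt1 (0.055) and Dhrs9 (0.056), and nearest to Nfkbia were Ctsd (0.032), Igfbp4 (0.035) and Naglu (0.043). Of the 10 genes, Nfkbiz was closest to Tnfaip3, at 0.198, and Nfkbie to Nfkbia, at 0.171. All profiles share the same 6 libraries and largely express the genotype difference.

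Markers of the labelled and other cell types were read beside these results. Of 12 tested surface epithelium and mesothelium markers 4 rose and 4 fell, where 14.1% and 16.1% of all tested genes did. Msln, Krt8, Krt18, Krt19, Upk1b and Wt1 were at 187 CPM or more in every library. Of these, Wt1 rose from 192 to 339 CPM, and Krt18 and Upk1b were not called. Msln, Krt8 and Krt19 fell with log2 fold changes of -0.26, -0.31 and -0.30. Epcam was at 0 counts, and Cdh1 was at 0.77 CPM in Trp53_KO and 0.69 in Trp53_WT. Krt7 rose from 3.93 to 6.90 CPM. Some markers of the list differed more widely between the genotypes. Bnc1 was at 0.073 CPM in Trp53_KO and 38.9 in Trp53_WT, Lrrn4 at 65.5 and 0.23 CPM, and Upk3b at 531 and 73.7 CPM, all called by edgeR. Of 15 leukocyte and macrophage markers 9 were at 0 counts in all libraries, among them Adgre1, Itgam and Cd3e, and Ptprc had 10 counts in all. The list summed to between 8.35 and 10.3 CPM of library totals in Trp53_KO and between 30.9 and 35.5 in Trp53_WT, of which Cd14, itself a co-receptor of Tlr4, was at a mean of 28.3 CPM in Trp53_WT. Of 8 fibroblast markers 4 were tested and rose, with sums of 694 to 851 against 229 to 279 CPM, mostly from Col1a1 and Dcn, whereas Col1a2, Lum and Thy1 had 2 counts or fewer in each genotype. Of 7 endothelial markers 1 was tested, Pecam1, which rose, and Cdh5, Kdr and Emcn were at 0. The part of these shifts in the results above was not tested. In a bulk library, fewer cells of a kind and less RNA per cell cannot be told apart.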

How the data were processed

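Gene-level RNA-seq was measured in 6 libraries. They were made from column-purified, DNase-treated total RNA with a stranded kit, per the labels' protocols. STAR, featureCounts and edgeR with mm10 are named in the submitters' processing notes; their versions and settings, and the annotation, are not stated in what was used here. Counts are whole numbers by gene symbol as the authors deposited them, beside a table of repeats with log2 fold changes and FDR values (adjusted p-values). The authors' deposited table does not state the base of the logarithm. It was checked over 552 rows with an FDR under 0.05 in that table, in exons or 3' untranslated regions. Their genes were called with at least a 2-fold change, and the median ratio to the gene's own log2 fold change was 1.03. Read direction was taken from the row suffix, which matched the gene's strand for 88.0% of 38905 rows.

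Counts were fitted with edgeR 4.0.16 in R 4.3.3 (filterByExpr, TMM, genotype as the only term, all 6 libraries), leaving 13651 genes, and adjusted over all of them. Standard errors, log2 fold change over the root of F, are approximate. Tools for alternatives were DESeq2 1.42.0 and limma 3.58.1. The fit was tested on simulated data. It called 78 of 100 genes with a simulated log2 change of 0.5 in size, and 100 of 100 with a change of 1. There were 6 false calls in a fit of 13465 genes. Smaller changes were not simulated. Pairs of replicates differed by a chi-square per degree of freedom of 2.10 to 29.7, so none counted as a duplicate; the highest values involved Trp53_WT replicate 1. Intervals on counts cover counting error only. Gene positions and lengths came from GENCODE M21 (GRCm38), and ratio tests from scipy 1.17.1. The 10 genes, the lists and the rule for named genes (all 10; up to 4 genes per list with the lowest adjusted p; a fixed set of pathway genes) were chosen with earlier results of these data known.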

Additional observations from a re-analysis of the deposited data

How the results depend on the processing

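The 6 falls among the 10 genes were called under every size factor, filter and tool tried (RLE, upper quartile or library totals; no filter or at least 1 CPM in 3 libraries; DESeq2, limma-voom) and with each library left out, where the count ran from 6 to 7, the seventh being Rela without Trp53_WT replicate 1. It was 5 at an adjusted p under 0.01 and 2 (Nfkbiz and Tnfaip3) when at least a 2-fold change was asked. For the pathway lists that last condition left 14 lower and 3 higher genes of 37 and 7, and with 1 library left out the counts ran from 30 to 38 and from 5 to 7. Over all tested genes, 2200 lower and 1930 higher became 1379 and 1199 at an adjusted p under 0.01 and 630 and 628 with at least a 2-fold change. Shared replicate numbers gave no clear sign of pairing. The correlations of deviations of same-numbered libraries were -0.04, 0.18 and -0.15, and those of the other pairs ran from -0.20 to 0.19. With so few libraries in each genotype this cannot exclude pairing. With the replicate number as a block, 6 of the 10 genes and 34 of the pathway genes fell, 0 and 7 rose.

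Some log2 fold changes changed sign without being called. Those of Tnip1, Bcl3 and Chuk were near 0. The log2 fold change of Rel was -0.26 and changed sign only without Trp53_WT replicate 1. With single libraries left out, that of Tnip1 ran from -0.0068 to 0.070, Rel from -0.45 to 0.22, Bcl3 from -0.24 to 0.052 and Chuk from -0.081 to 0.047. Chuk was also at 0.0091 with RLE, 0.0018 with library totals, 0.014 without a filter and 0.0090 in DESeq2. The log2 change of the ratio to its subunit ran from -0.60 to -0.52 for Nfkbia, 0.04 to 0.14 for Nfkbib, -0.36 to -0.26 for Nfkbie and -1.34 to -1.22 for Nfkbiz with 1 library left out. With 10 kb on either side of the genes, 12 repeat rows were lower in the authors' deposited table and 0 higher, the added ones beside Tnfaip3 and Nfkbib. The row beside Nfkbib lies in an intron of Sirt2 and was read opposite to the direction of Nfkbib. Of the other genes named, calls were lost for Ikbkb, Traf5, Usp18 and Col15a1 and gained for Nfkbil1 and Il18 under some alternatives; the cause was not tested. The interval of Nfkbib includes falls like that of Nfkb2, and the cytokine genes with few counts were not tested.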
